A study of Mus musculus with 106 samples.

Results

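The genes flanking *Htt* were taken as the protein-coding genes that lie wholly inside an 8 Mb window of mouse chromosome 5 (chr5:30840000-38840000, GRCm38), with *Htt* itself (chr5:34761740-34912534) left out. The rule found 120 genes among 21897 protein-coding genes listed, of which 75 lie before *Htt*, 44 lie after it and 1, *Msantd1*, overlaps its end. *Tmem214* (chr5:30868012-30879180) is the first of them and *Zfp518b* (chr5:38668484-38684826) the last, while *Mapre3* (chr5:30814641-30866106) and *Clnk* (chr5:38706462-38876812) cross an edge of the window and were not members. Counts were read in all but 3 members, which were at 0 in every library (*Dnajc5g*, *Gm20671* and the second of 2 entries for *Jakmip1*).

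HD mice (Hdh Q7/Q200) carried one long CAG repeat allele in the endogenous gene, and control mice (Hdh Q7/Q7) were their littermates, all on a 129S4 background in the lines that the paper describes. The knock-in allele had been made in an embryonic stem cell of another substrain, 129P2, and had passed through C57BL/6J mice before it was crossed to 129S4, so any DNA still linked to the allele came with it into each HD mouse. The strain of the flanking genes was not read from these counts. Both genotypes were heterozygous for RiboTag, a floxed *Rpl22* that gains an HA tag where Cre acts, and for one driver, Gad2-IRES-Cre, PV-IRES-Cre or vGluT2-IRES-Cre (an SST line is labelled but not described). Some SST controls carry mouse labels of a Z series, while the other SST controls and all SST HD mice carry BR labels. What these series stand for is not given, and they go in part with genotype. SST mice enter the fits over the cerebral lines below. The cell type of an IP is therefore whatever the driver marks, and the PV IPs were pooled from duplicate IPs of 1 mouse. The study took the cerebrum and cerebellum at 9 months (the age of the SST mice is not given), and made 106 libraries, 67 IPs of tagged ribosomes and 39 of total RNA, from 21 HD and 24 control mice. IP sets of the cerebrum held 6 control and 6 HD mice of the Gad2 line, 6 and 5 of the PV line, 5 and 4 of the SST line and 6 and 6 of the vGluT2 line, and those of the cerebellum held 6 and 6 of the Gad2 line and 5 and 6 of the vGluT2 line. Total RNA came from 3 mice of each genotype per line and region, save for 4 SST controls in the cerebrum and 4 of each genotype for vGluT2 in the cerebellum. Both regions, and IP and total RNA, were often taken from the same mouse, while each line had its own mice. Library totals ran from 21905221 to 107753586 counts, and 1 HD library each of the PV, cerebral vGluT2 and cerebellar Gad2 IPs had been sequenced again.

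An allele moved from one strain into another by breeding keeps flanking chromosome from the strain it was made in, and sequence differences in that flank sit in the same mice as the allele. A gene near a knock-in can therefore differ between carriers and littermates for reasons of its own sequence. The stretch around *Htt* is rich in genes of unlike function, among them an adrenergic receptor (*Adra2c*), a growth factor receptor (*Fgfr3*), a protein of the endoplasmic reticulum membrane (*Wfs1*) and a sorting protein of endosomes (*Snx17*). Since the repeat and any flank linked to it came together in HD mice, an effect of one on these genes and an effect of the other cannot be told apart in gene-level counts.

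Levels are given in CPM (counts scaled to library size) after TMM scaling, which evens out library size and the weight of a few abundant genes. The targeted cells were checked by the summed CPM of their markers. *Gad2*, *Slc32a1* and *Gad1* together had a median of 2836 CPM in control and 2507 CPM in HD cerebral Gad2 IPs, against 77.6 and 69.6 CPM in cerebral vGluT2 IPs. *Pvalb*, *Syt2* and *Kcnc2* stood at 1808 and 1797 CPM in PV IPs, and *Sst* with *Npy* at 1839 and 1342 CPM in SST IPs. *Slc17a6* and *Slc17a7* reached 2185 and 2026 CPM in cerebral vGluT2 IPs, though they were also read at 921.2 and 869.3 CPM in PV IPs and at 948.4 and 872.0 CPM in SST IPs. In the cerebellum the Purkinje markers *Pcp2* and *Calb1* had 4409 and 3931 CPM in Gad2 IPs and 155.5 and 122.4 CPM in vGluT2 IPs, and the granule neuron markers *Gabra6* and *Neurod1* had 2296 and 1526 CPM in vGluT2 IPs. *Slc17a6*, the gene of the vGluT2 driver, had a median over both genotypes of 110.5 CPM in cerebral vGluT2 IPs, no higher than in PV (117.6 CPM) or SST IPs (115.4 CPM), so that the glutamatergic sum rested on *Slc17a7*. Oligodendrocyte markers summed to 2853 CPM in control SST IPs, above *Sst* with *Npy*. No defining marker was at 0 in the IPs of its own cells.

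Most members were expressed in each of the 12 sets of tissue, line and preparation. A median of 1 CPM or more was reached by 88 members (cerebellar vGluT2 IPs) to 96 (cerebral total RNA of the Gad2, PV and vGluT2 lines), and 14 to 20 members had 100 CPM or more. Per kb of exon, the most abundant in all sets but the SST IPs were *Ywhah*, which binds phosphorylated signalling proteins, *Nsg1*, a neuronal protein of endosomes, and *Mrfap1*. *Nsg1* led in cerebellar Gad2 IPs at 1040.0 CPM per kb, where *Ywhah* had 808.9 CPM per kb. *Ywhah* led in cerebral vGluT2 IPs at 516.6 CPM per kb, and *Mrfap1* in cerebellar vGluT2 IPs at 372.9 CPM per kb. The median member lay near 4 CPM per kb in all 12 sets, from 3.46 in cerebellar Gad2 total RNA to 4.14 in cerebral vGluT2 IPs.

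HD was compared with control by edgeR's quasi-likelihood F test in each IP set, and with the line as a covariate over the IPs of a region (4 cerebral or 2 cerebellar lines) and over its total RNA, 10 comparisons in all. Protein-coding genes whose mean count passed 10 were tested, p was adjusted over all of them by Benjamini-Hochberg, and an adjusted p of 0.05 or less is a call. A log2 fold change is HD over control, with its standard error (SE). Genotypes are said to be apart where their values do not overlap. The share of all genes with genotypes apart was not counted, and groups of a few mice can be apart by chance. All 10 comparisons tested 93 members, some of them tested 15 and none tested 12. No call was made for 77 of the 108 members tested. Called in 1 comparison were 27, of which 24 in cerebellar total RNA, where 24.5% of all genes were called. Called in 2 or more with one sign were 4 members, *Adra2c*, *Wfs1*, *Crmp1* and *Snx17*, and none was called in opposite directions in these 10. The pooled comparisons share libraries with the single sets, so these counts are not independent of each other.

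**Figure D1:**
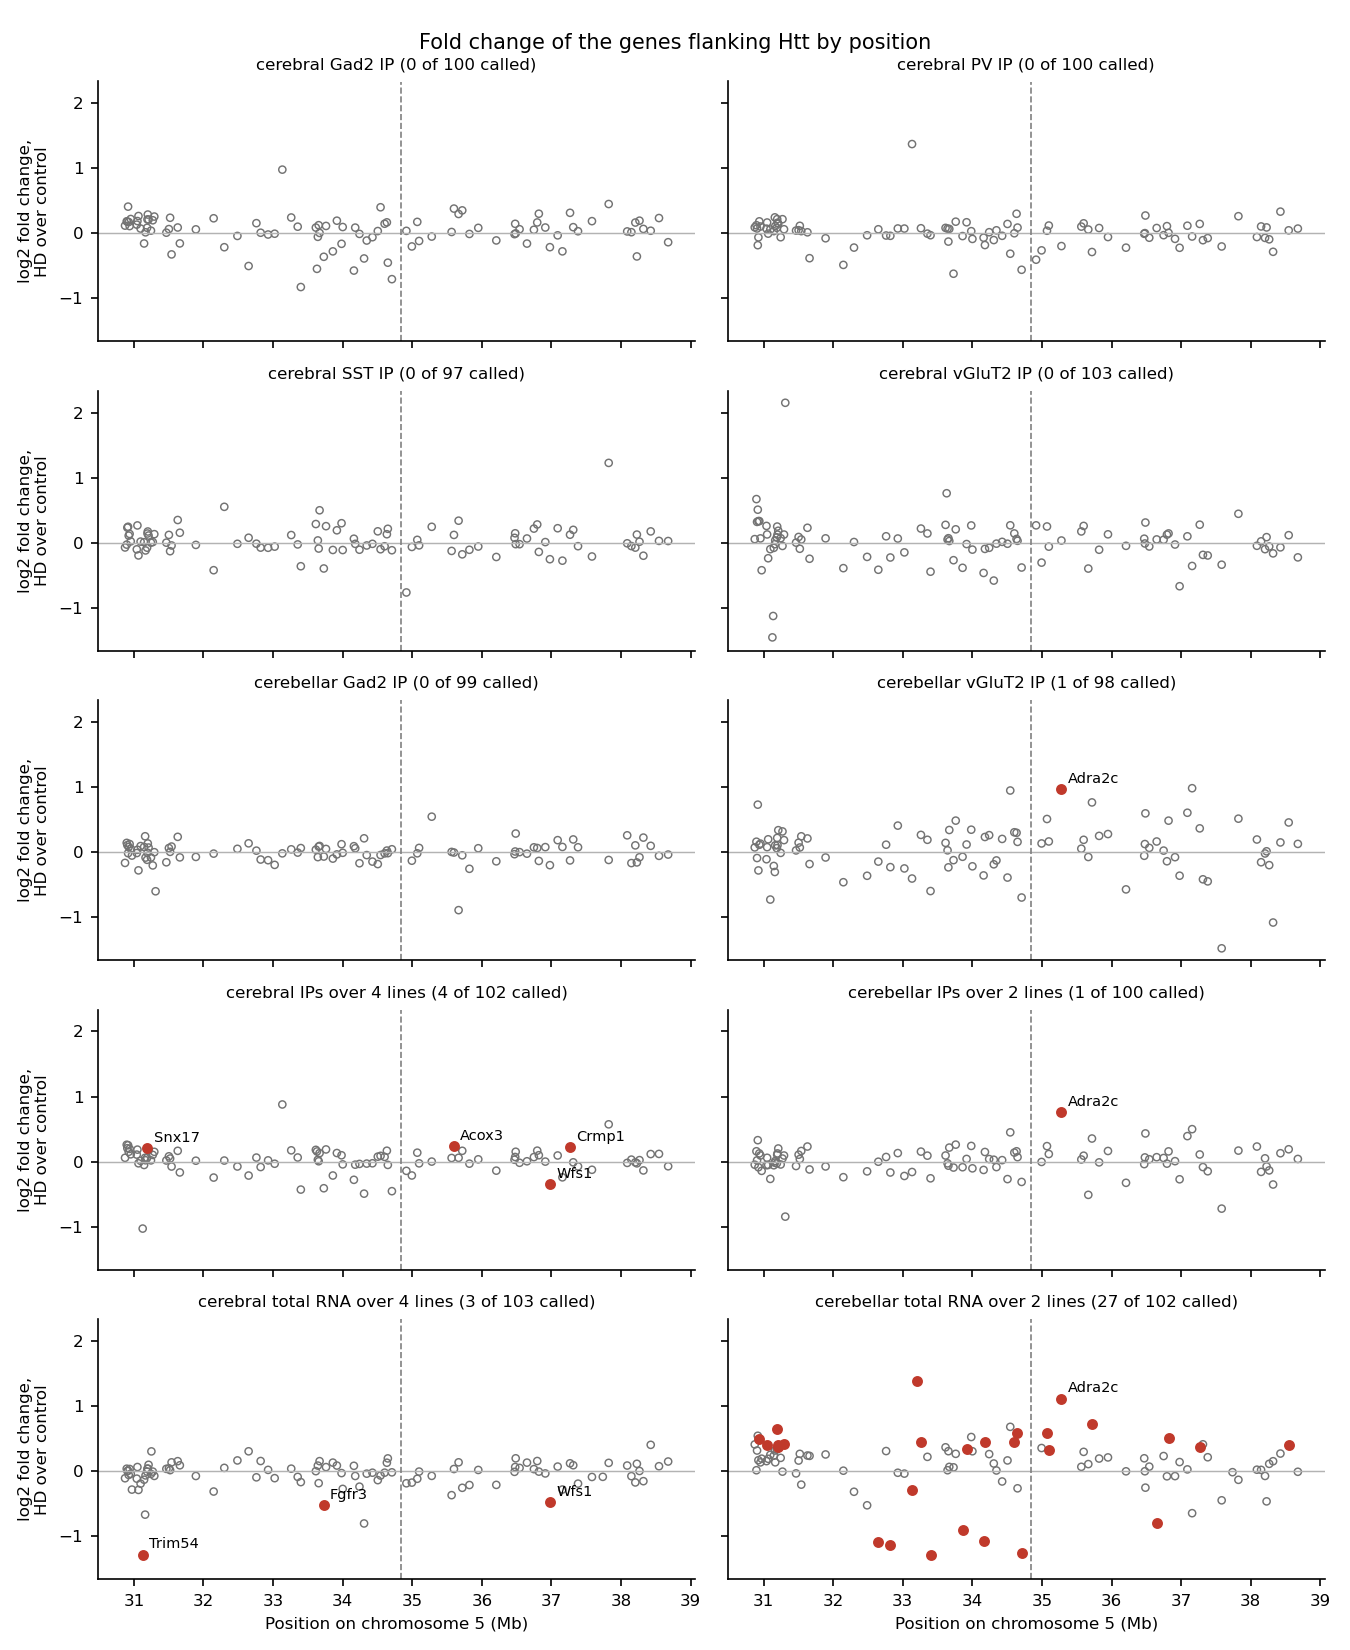
Log2 fold change (HD over control) of each member tested against the middle of the gene on chromosome 5 (Mb), 1 panel per comparison. Filled points are calls (adjusted p of 0.05 or less, edgeR), open points the other members, and the dashed line marks *Htt*; *Adra2c* is the one call in the cerebellar vGluT2 IPs and in the IPs over 2 cerebellar lines.

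*Adra2c* encodes an adrenergic receptor that inhibits adenylyl cyclase and lies 365.8 kb after *Htt* (chr5:35278319-35281763, plus strand), with no other gene overlapping it. In cerebellar vGluT2 IPs the controls had 6.94, 11.7, 13.2, 14.8 and 15.8 CPM, and 6 HD mice had 20.3 to 27.0 CPM (median 24.2). All HD libraries lay above all controls, and the log2 fold change was 0.97 (SE 0.188, adjusted p = 0.0158 by edgeR). In cerebellar Gad2 IPs the 6 controls ran from 6.30 to 9.09 CPM (median 6.57) and the 6 HD mice from 9.15 to 12.2 CPM (median 10.3). These groups did not overlap either, although the highest control and the lowest HD mouse lay close together, and the log2 fold change of 0.54 (SE 0.133, adjusted p = 0.707 by edgeR) was no call. An alternative fit, the replicate block, put HD and control libraries of a line with the same replicate number in one block. With the replicate block the vGluT2 value was 0.97 (adjusted p = 0.0819 by edgeR), the same change without a call. Over both cerebellar lines the gene rose by 0.76 (SE 0.118, adjusted p = 0.000974 by edgeR), a call that ended without the vGluT2 line (0.54, adjusted p = 0.707 by edgeR), and the step in vGluT2 over that in Gad2 IPs, 0.40 (SE 0.224, adjusted p = 0.763 by edgeR), was not called.

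*Adra2c* was also higher in HD total RNA of the cerebellum, where 24.5% of all genes were called. The size of the rise was not tested between preparations. The vGluT2 libraries of this tissue also stood apart by genotype in their balance of long and short transcripts. Controls of the vGluT2 line had 9.75, 10, 10.3 and 12.8 CPM, and HD mice 28.0, 29.3, 30.5 and 31.7 CPM. In the Gad2 line, controls had 13.4, 13.4 and 14.8 CPM and HD mice 17.4, 22.1 and 33.1 CPM. The groups were apart in both lines, and the fit over both put the rise at 1.11 in log2 (SE 0.138, adjusted p = 0.00104 by edgeR). With the replicate block it was 1.10 (adjusted p = 0.07) and without the vGluT2 line 0.79 (adjusted p = 1.0 by edgeR), neither of them a call. Taken line by line in a fit of the group means, it was 1.35 (SE 0.155) for vGluT2 and 0.80 (SE 0.178) for Gad2 mice. *Adra2c* thus stood apart by genotype in each of the 4 cerebellar sets, which share mice between IP and total RNA. In the fit of the group means 48.8% of all genes were called for the vGluT2 line of this total RNA. How many of all genes stood apart in these sets was not counted.

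**Figure D2:**
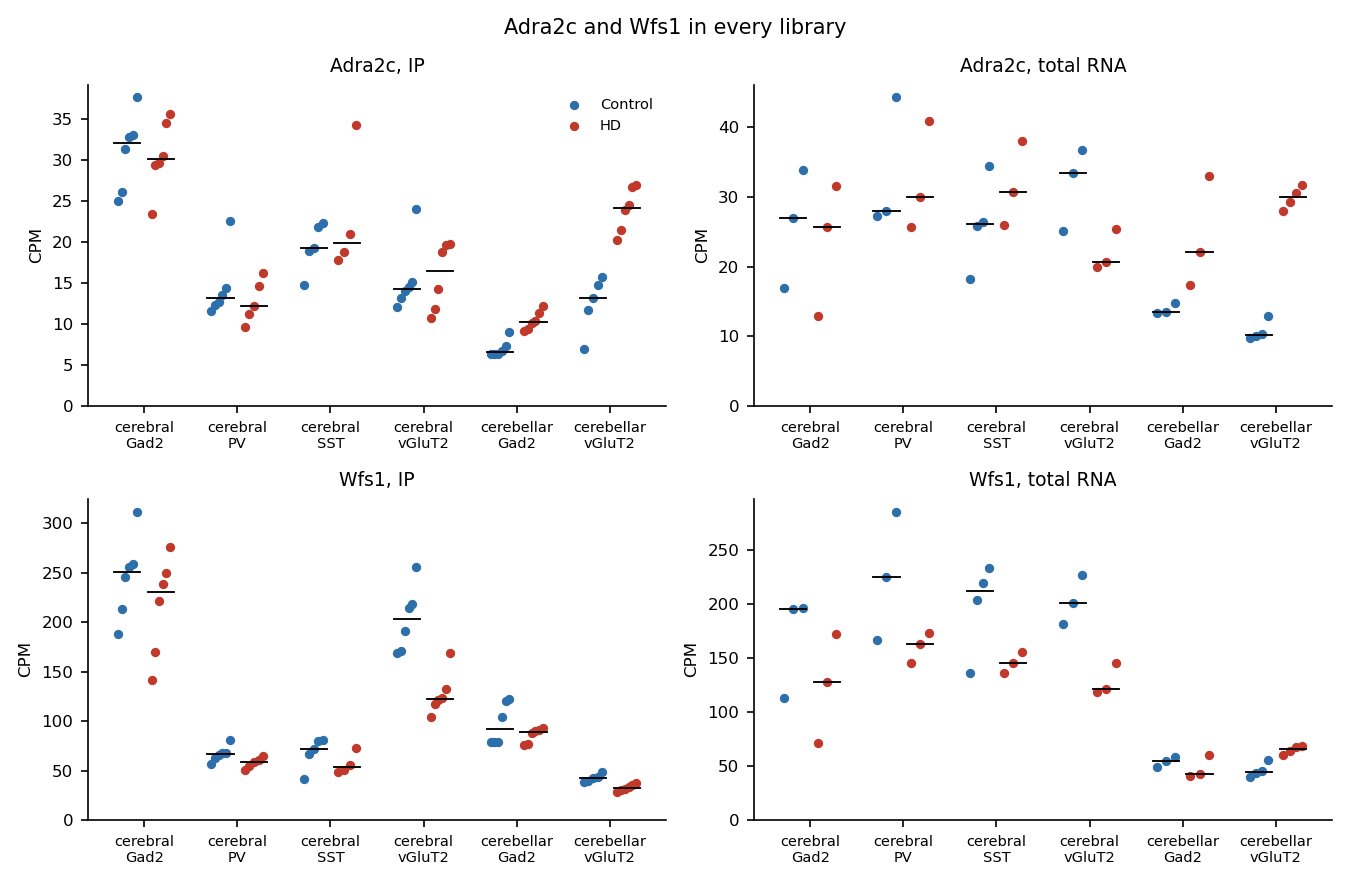
CPM of *Adra2c* (top) and *Wfs1* (bottom) in every IP (left) and total RNA library (right) by region and line, with a bar at the median of each genotype. *Adra2c* is higher in all HD than in all control libraries of the 4 cerebellar sets and overlaps in the 8 cerebral ones, while HD lies on the lower side for *Wfs1* in the cerebral vGluT2 sets, where the genotypes do not cross.

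In the cerebrum no change of *Adra2c* was called. Cerebral Gad2 IPs had 25.1 to 37.7 CPM in 6 controls (median 32.1) and 23.4 to 35.6 CPM in 6 HD mice (median 30.1). In PV IPs the 6 controls had 11.6 to 22.6 CPM (median 13.1) and the HD mice 9.60, 11.2, 12.2, 14.7 and 16.2 CPM. The genotypes lay across each other in both sets. SST controls had 14.8, 18.9, 19.3, 21.9 and 22.4 CPM and SST HD mice 17.8, 18.9, 21 and 34.3 CPM, and cerebral vGluT2 IPs had 12.1 to 24.1 CPM in 6 controls (median 14.3) and 10.8 to 19.8 CPM in 6 HD mice (median 16.5). These overlapped as well, and the log2 fold changes of −0.05 (SE 0.119), −0.20 (SE 0.17), 0.24 (SE 0.195) and 0.03 (SE 0.193) in the same order changed sign between lines. Over the 4 lines the value was 0.00 (SE 0.089) in IPs and −0.07 (SE 0.136) in total RNA.

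Whether the change of *Adra2c* differs between the regions was tested on the 23 mice of the Gad2 and vGluT2 lines that gave IPs of both regions, with both lines in one fit. The cerebellar minus the cerebral log2 fold change was 0.80 (SE 0.148, adjusted p = 0.0103 by edgeR). *Adra2c* was the 1 member called of 103 tested (0.971%), against 42 of 14489 genes (0.29%), and it stayed called without any single one of the 23 mice, at 0.70 to 0.86, with 2 members among 39 genes called in the fit without vGluT2 Control replicate 5. By the same kind of test no member was called as differing between the lines of one region, which does not show that the lines were alike. Among cerebral IPs 0 of 102 members and 0 of 14678 genes (0.0%) were called by edgeR, with 1 member at an unadjusted p under 0.05 and 0 called by DESeq2. Among cerebellar IPs 0 of 100 members were called against 15 of 13971 genes (0.107%), with 9 members at an unadjusted p under 0.05 (9.0%, against 7.08% of all genes) and 0 by DESeq2.

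The level of *Adra2c* differed between the sets. Per kb of exon, the control median was highest among the IPs in the cerebral Gad2 line (9.33 CPM per kb), followed by SST (5.59), cerebral vGluT2 (4.14), cerebellar vGluT2 (3.83), PV (3.81) and cerebellar Gad2 IPs (1.91). In CPM, the ranges of cerebral vGluT2 controls (12.1 to 24.1) and cerebellar vGluT2 controls (6.94 to 15.8) overlapped.

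The other adrenergic receptors, which lie on other chromosomes, gave a comparison by family. Of 9 receptor genes, 7 were tested in cerebellar vGluT2 IPs and 8 over both cerebellar lines, and *Adra2c* was the one call each time. The other genes of its subfamily were not called. *Adra2a* changed by −0.68 (SE 0.489, adjusted p = 0.544 by edgeR) in cerebellar vGluT2 IPs and by 0.09 (SE 0.161, adjusted p = 0.679 by edgeR) in cerebellar total RNA, and *Adra2b* by 0.34 (SE 0.234, adjusted p = 0.267 by edgeR) in that total RNA. In cerebellar total RNA 2 of 8 were called, beside 24.5% of all genes there, *Adra2c* and *Adra1b*, a receptor of another subfamily, at 0.65 (SE 0.15, adjusted p = 0.0279 by edgeR). In the cerebral comparisons 0 of 9 were called by edgeR.

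*Htt* was the reference point of the window and not a member. Over the 4 cerebral lines it fell by 0.52 in IPs (SE 0.0629, adjusted p = 9.67e-07 by edgeR) and by 0.50 in total RNA (SE 0.0826, adjusted p = 0.00185 by edgeR), and in cerebellar total RNA by 0.49 (SE 0.132, adjusted p = 0.0301 by edgeR). The cerebral total RNA call ended without the Gad2 line (−0.49, adjusted p = 0.0636 by edgeR). The cerebellar one was kept in 5 of the 14 fits without a single library, at −0.60 to −0.43, and ended with the replicate block (−0.51, adjusted p = 0.121), with a measure of long to short transcripts as a covariate (−0.33, adjusted p = 0.363) and without the vGluT2 line (−0.48, adjusted p = 1.0 by edgeR). The cerebellar IPs gave −0.45 (SE 0.113, adjusted p = 0.0559 by edgeR). Unlike *Adra2c*, *Htt* was not called as different between regions (0.13, SE 0.147, adjusted p = 0.789 by edgeR).

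In the single IP sets of the cerebrum no member was called. Cerebral Gad2 IPs gave 0 of 100 members against 4 of 14342 genes (0.0279%), with 7 members at an unadjusted p under 0.05 (7.0%, against 9.15% of all genes) and 0 by DESeq2. The lowest p belonged to *Acox3* (0.38, SE 0.126, adjusted p = 0.536 by edgeR), and the 7 were all higher in HD. PV IPs gave 0 of 100 against 5 of 14713 (0.034%), with 5 members at an unadjusted p under 0.05 (5.0%, against 4.28% of all genes) and 1 by DESeq2. The lowest p there was that of *Fgfr3* (−0.62, SE 0.146, adjusted p = 0.366 by edgeR), a gene strong in astrocytes, and the 5 astrocyte markers had a median log2 fold change of −0.27 in these IPs (269.6 CPM summed in controls and 237.7 CPM in HD mice), with 0 called by edgeR. SST IPs gave 0 of 97 against 0 of 14689 (0.0%), with 4 members at an unadjusted p under 0.05 (4.12%, against 1.41% of all genes), led by *Msx1* (1.23, SE 0.408, adjusted p = 1.0 by edgeR), and 0 by DESeq2. Cerebral vGluT2 IPs gave 0 of 103 against 1 of 14354 (0.00697%), with 10 members at an unadjusted p under 0.05 (9.71%, against 7.28% of all genes) and 1 by DESeq2. The 1 gene was *Htt* (−0.63, adjusted p = 0.0444 by edgeR), whose call was kept in 1 of 12 fits without a single library and ended with DESeq2 size factors, without the filter on counts, with the replicate block (−0.61, adjusted p = 0.213) and without the library sequenced again (−0.61, adjusted p = 0.0892 by edgeR). *Acox3*, *Fgfr3* and *Msx1* are named here by their p, after their values were seen.

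Of the cerebellar sets, Gad2 IPs gave 0 of 99 members against 2 of 14098 genes (0.0142%) by edgeR, with 2 members at an unadjusted p under 0.05 (2.02%, against 2.3% of all genes), *Adra2c* and *Htra3* (−0.89, SE 0.413), and 1 by DESeq2. Cerebellar vGluT2 IPs gave 1 of 98 members (1.02%), *Adra2c*, against 285 of 13487 genes (2.11%), and by DESeq2 5 members among 665 genes. An unadjusted p under 0.05 was reached by 20 members (20.4%, against 15.5% of all genes), 14 higher and 6 lower in HD, and the median log2 fold change was 0.11 over members and −0.01 over all genes. Next to *Adra2c* came *Sh3bp2*, an adaptor of signalling kinases 198.1 kb before *Htt*, whose controls had 0.958, 1.03, 1.20, 1.32 and 1.41 CPM and whose 6 HD mice had 1.65 to 2.64 CPM (median 2.34). Its groups did not overlap, and its log2 fold change of 0.95 (SE 0.24, adjusted p = 0.0598 by edgeR) fell just short of a call. Without Control replicate 5, 3 members were called in these IPs among 230 genes, and without HD replicate 6, 2 among 210, *Adra2c* being kept without each single library. The IPs over 2 cerebellar lines gave 1 of 100 members (1.0%), against 108 of 13971 genes (0.773%).

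Granule neuron markers moved in the same cerebellar vGluT2 IPs. *Gabra6* and *Neurod1* summed to 1720 to 2575 CPM in 5 controls (median 2296) and 1036 to 1914 CPM in 6 HD mice (median 1526), ranges that overlapped, with *Gabra6* the more abundant. Of the 2, 1 was called as lower, and neither was at 0. Of the other lists, 0 of 3 GABAergic, 0 of 3 PV neuron, 0 of 2 SST neuron, 0 of 2 glutamatergic, 0 of 2 Purkinje, 0 of 5 astrocyte, 0 of 5 oligodendrocyte and 0 of 5 microglia markers were called in these IPs. Fewer cells of a type and less RNA per cell cannot be told apart in such libraries, and the part of the granule neuron markers in the rise of *Adra2c* was not tested.

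Over the 4 cerebral lines the IPs gave 4 of 102 members (3.92%), *Wfs1*, *Acox3*, *Snx17* and *Crmp1*, against 384 of 14678 genes (2.62%). The median log2 fold change was 0.03 over members and 0.00 over all genes, and 25 members had an unadjusted p under 0.05 (24.5%, against 19.0% of all genes), so that members as a list lay close to the background. Of 29 cell markers 1 was called in these IPs, an oligodendrocyte marker that was lower, and astrocyte markers had 0 of 5 called by edgeR with a median log2 fold change of −0.22; their part in the members' changes was not tested. Without vGluT2 Control replicate 1, 7 members were called in these IPs among 649 genes, and by DESeq2 7 among 622. Cerebral total RNA gave 3 of 103 members (2.91%), *Fgfr3*, *Trim54* and *Wfs1*, against 96 of 14880 genes (0.645%). All 3 were lower in HD, as were 73 of the 96 genes called and 12 of the 13 members with an unadjusted p under 0.05 (12.6%, against 7.03% of all genes), while the median over members, −0.01, was near that over all genes, 0.02.

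*Wfs1* encodes wolframin of the endoplasmic reticulum membrane, lost in Wolfram syndrome, and lies 2054 kb after *Htt*. In cerebral vGluT2 IPs 6 controls had 169.0 to 255.9 CPM (median 202.8) and 6 HD mice 104.4 to 169.0 CPM (median 121.9). The highest HD mouse ended where the lowest control began, and none crossed. In cerebral vGluT2 total RNA the controls had 181.9, 201.3 and 227.2 CPM and the HD mice 118.8, 121.6 and 145.7 CPM, again apart. The fit of the cerebral vGluT2 IPs alone gave −0.67 (SE 0.12, adjusted p = 0.147 by edgeR), which was no call. Within the fit of all cerebral IPs the vGluT2 line changed by −0.68 (SE 0.144, adjusted p = 0.0458 by edgeR), and the Gad2, PV and SST lines by −0.18, −0.23 and −0.26. Over all lines *Wfs1* fell by 0.35 in IPs (SE 0.0793, adjusted p = 0.00881 by edgeR) and by 0.48 in total RNA (SE 0.104, adjusted p = 0.0249 by edgeR). Without the vGluT2 line the cerebral IP value was −0.23 (adjusted p = 0.312 by edgeR) and no longer a call, and the larger fall in vGluT2 neurons was not called as different between lines (adjusted p = 1.0 by edgeR). The total RNA call ended without the PV (−0.50, adjusted p = 0.114), SST (−0.49, adjusted p = 0.191) or vGluT2 line (−0.45, adjusted p = 0.403 by edgeR), without Gad2 Control replicate 2 (−0.46, adjusted p = 0.0533 by edgeR) and without SST HD replicate 2 (−0.48, adjusted p = 0.0537 by edgeR), each at nearly the same log2 fold change.

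In IPs of the other cerebral lines *Wfs1* leaned the same way without standing apart. Gad2 IPs had 188.0 to 310.7 CPM in 6 controls (median 250.5) and 141.0 to 275.8 CPM in 6 HD mice (median 230.0). PV IPs had 56.4 to 80.6 CPM in 6 controls (median 66.3), and HD mice had 50.7, 54.7, 58.4, 60.5 and 64.7 CPM. The genotypes overlapped in both. SST IPs had 41.5, 67.1, 71.7, 79.8 and 81.0 CPM in controls and 48.4, 50.3, 56.01 and 72.7 CPM in HD mice, where 1 control lay below every HD mouse. In cerebral total RNA the fit of group means gave similar falls in these lines, −0.45 for Gad2, −0.45 for PV and −0.44 for SST mice. The vGluT2 line had −0.59 there, and none of these was a call by edgeR. Per kb of exon, *Wfs1* was higher in control IPs of the cerebral Gad2 (66.2 CPM per kb) and vGluT2 lines (53.6) than in those of the PV (17.5) and SST lines (18.9).

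In the cerebellar vGluT2 line *Wfs1* was lower in HD IPs, without a call, and higher in HD total RNA. In IPs the controls had 38.4, 39.8, 42.1, 43.1 and 48.8 CPM and 6 HD mice 27.8 to 36.9 CPM (median 32.2), all lower, at −0.36 (SE 0.111, adjusted p = 0.121 by edgeR). In total RNA of the same line the controls had 40.0, 43.6, 45.0 and 55.9 CPM and the HD mice 60.5, 64.0, 67.6 and 69.0 CPM, all higher, at 0.37 (SE 0.129, adjusted p = 0.0289 by edgeR) in a fit of group means that called 48.8% of all genes in this line. The same 8 libraries stood apart by genotype in their balance of long and short transcripts. The Gad2 line of the cerebellum overlapped in both preparations, and over both lines *Wfs1* changed by −0.27 in IPs (SE 0.0836, adjusted p = 0.162 by edgeR) and by 0.14 in total RNA (SE 0.121, adjusted p = 0.379 by edgeR). The difference between preparations was not tested.

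*Snx17*, a sorting nexin that returns receptors from endosomes to the cell surface, lies 3563 kb before *Htt*. Cerebral Gad2 IPs had 112.6 to 144.3 CPM in 6 controls (median 128.0) and 123.5 to 180.0 CPM in 6 HD mice (median 154.8), and vGluT2 IPs 89.1 to 138.8 CPM (median 111.2) and 125.4 to 150.9 CPM (median 134.6). PV IPs had 78.0 to 100.3 CPM in 6 controls (median 92.7), with HD mice at 86.7, 102.4, 104.4, 122.4 and 122.6 CPM, and SST IPs had 60.3, 76.7, 84.9, 86.0 and 98.3 CPM in controls and 75.8, 86.9, 89.0 and 104.9 CPM in HD mice. Each set overlapped, with the HD median the higher in all 4, and the rise over the lines was 0.21 (SE 0.0527, adjusted p = 0.0163 by edgeR). It was called without each single library but not without the Gad2 line (0.21, adjusted p = 0.154), the PV line (0.21, adjusted p = 0.0941) or the vGluT2 line (0.20, adjusted p = 0.188 by edgeR), where the fold change was nearly kept. In cerebral total RNA *Snx17* changed by 0.04 (SE 0.103, adjusted p = 0.978 by edgeR).

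*Crmp1*, a collapsin response mediator protein that couples guidance signals to microtubules, lies 2329 kb after *Htt*. Cerebral Gad2 IPs had 145.6 to 201.1 CPM in 6 controls (median 169.4) and 157.6 to 257.3 CPM in 6 HD mice (median 223.9), and vGluT2 IPs 231.1 to 278.1 CPM (median 239.0) and 248.9 to 381.4 CPM (median 294.6). PV IPs had 175.5 to 232.1 CPM in 6 controls (median 187.3) and HD mice at 193.9, 195.9, 201.9, 235.8 and 248.7 CPM, and SST IPs had 164.7, 191.8, 196.8, 211.8 and 234.1 CPM in controls and 166.5, 226.7, 228.2 and 246.4 CPM in HD mice. The groups overlapped in every line, and the rise over the 4 lines was 0.23 (SE 0.0567, adjusted p = 0.0167 by edgeR). As for *Snx17*, the call ended without the Gad2 (0.19, adjusted p = 0.192), PV (0.25, adjusted p = 0.0545) or vGluT2 line (0.20, adjusted p = 0.21 by edgeR). *Acox3*, a peroxisomal oxidase 670.5 kb after *Htt* that was named after its values were seen, rose by 0.24 (SE 0.0587, adjusted p = 0.0144 by edgeR), a call that ended without the same 3 lines (0.19, 0.27 and 0.23, adjusted p = 0.194, 0.0594 and 0.129 by edgeR). Its HD medians lay above its control medians in all 4 lines of the cerebral IPs, with a control median of 29.96 and an HD median of 33.3 CPM in vGluT2 and of 33.3 and 43.8 CPM in Gad2 mice.

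**Figure D3:**
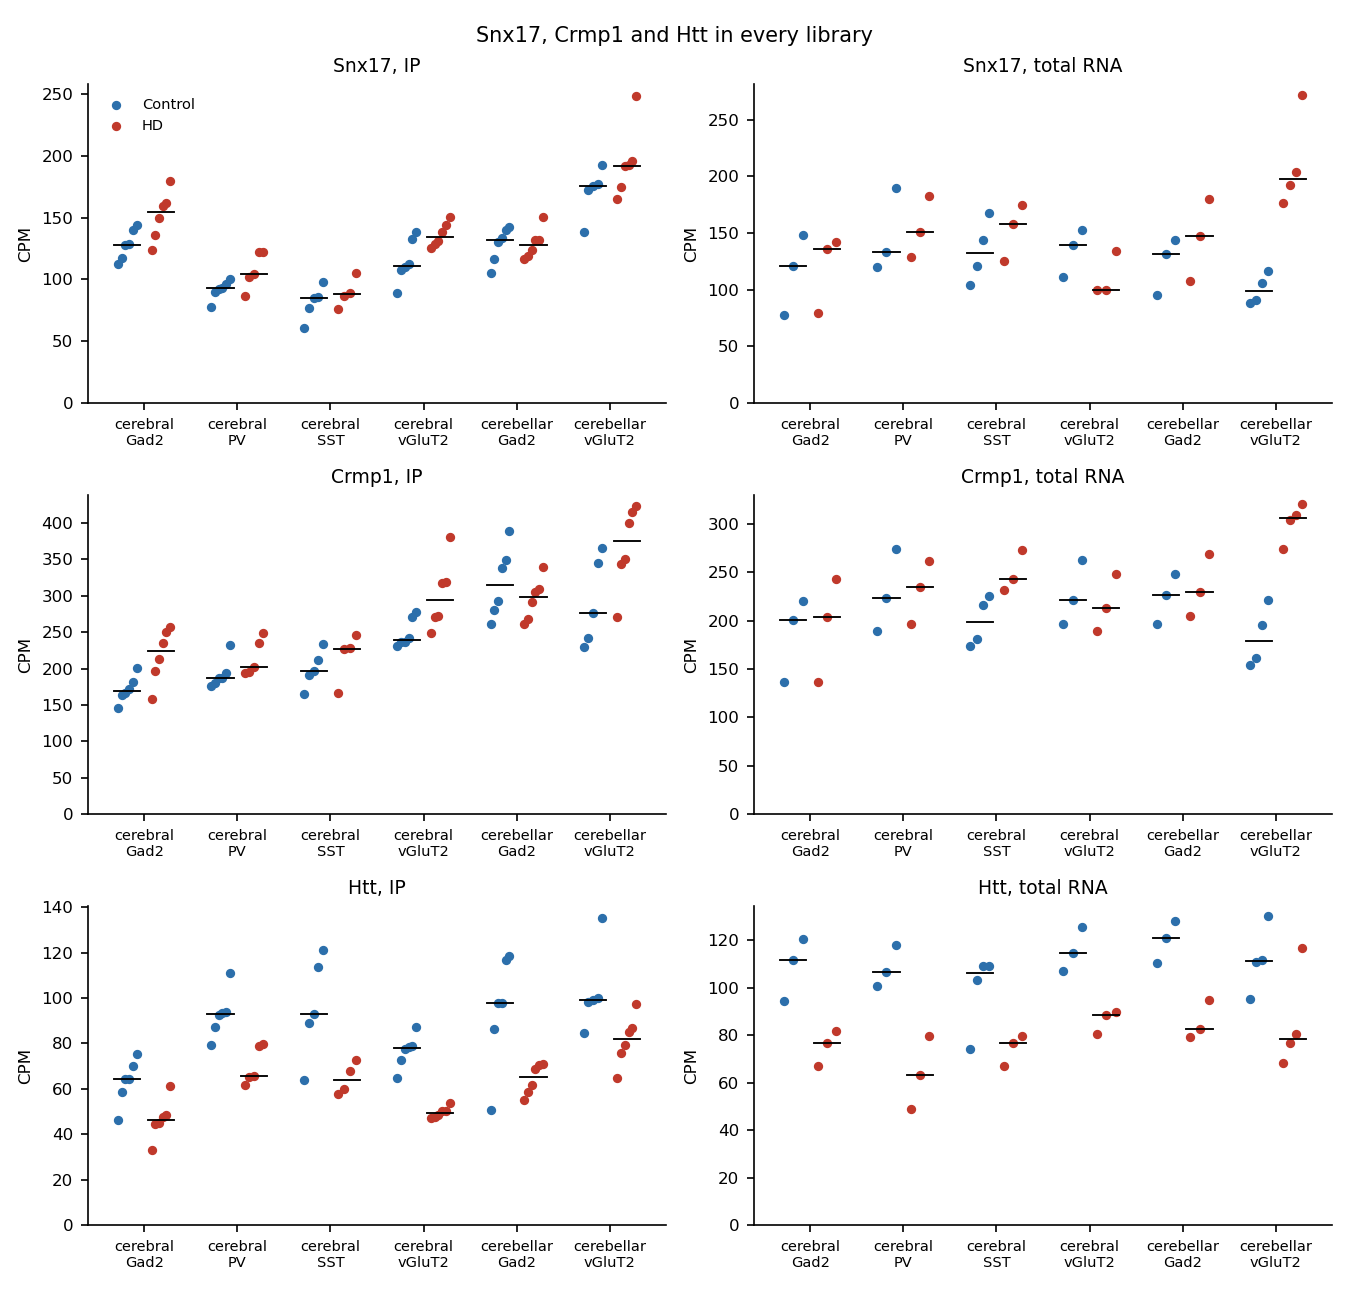
CPM of *Snx17*, *Crmp1* and *Htt* in every IP (left) and total RNA library (right) by region and line, with a bar at the median of each genotype. In cerebellar vGluT2 total RNA the 4 HD mice lie above the 4 controls for *Snx17* and *Crmp1*, while *Htt* has lower HD medians in all 12 sets.

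In cerebral total RNA the largest calls were those of *Fgfr3* and *Trim54*, both named after their values were seen. *Fgfr3* encodes a fibroblast growth factor receptor that is strong in astrocytes, and lies 1025 kb before *Htt*. Its total RNA level was 144.5, 155.0 and 205.1 CPM in PV controls and 101.6, 103.3 and 124.1 CPM in PV HD mice, and 132.4, 166.6 and 195.0 CPM in vGluT2 controls and 81.5, 96.5 and 129.0 CPM in vGluT2 HD mice. SST controls had 128.7, 143.0, 176.2 and 185.0 CPM and SST HD mice 104.1, 106.0 and 117.2 CPM. The genotypes were apart in these 3 lines and, read without regard to replicate number, overlapped in the Gad2 line, where controls had 95.4, 151.6 and 156.1 CPM and HD mice 64.3, 109.7 and 143.7 CPM. Groups of 3 or 4 mice can stand apart by chance, and the share of all genes that did was not counted. Over the lines *Fgfr3* fell by 0.52 (SE 0.0972, adjusted p = 0.00751 by edgeR). It kept its call without each single library, and missed it at nearly the same fold change without the PV (−0.51, adjusted p = 0.0914), SST (−0.51, adjusted p = 0.143) or vGluT2 line (−0.49, adjusted p = 0.136 by edgeR). The astrocyte markers *Gfap*, *Slc1a3*, *Aqp4*, *Aldh1l1* and *S100b* gave 0 calls of 5 in the same libraries by edgeR, with a median log2 fold change of 0.03. *Trim54*, a ring finger protein of microtubules best known in muscle, stayed at or under 1.76 CPM there. Its PV controls had 0.674, 0.800 and 1.76 CPM and PV HD mice 0.165, 0.219 and 0.380 CPM, and its vGluT2 controls 1.001, 1.08 and 1.54 CPM and HD mice 0.223, 0.366 and 0.4929 CPM. Gad2 controls had 0.4516, 0.4574 and 1.10 CPM and HD mice 0.303, 0.387 and 0.539 CPM, and SST controls 0.651, 0.658, 1.18 and 1.52 CPM and HD mice 0.275, 0.391 and 0.824 CPM. Read without regard to replicate number, the PV and vGluT2 lines stood apart at this low level and the Gad2 and SST lines overlapped. Their log2 fold changes were −1.98 (SE 0.516), −1.65 (SE 0.487), −0.69 (SE 0.48) and −0.97 (SE 0.447) in that order. Over the 4 lines *Trim54* fell by 1.29 (SE 0.248, adjusted p = 0.0107 by edgeR), a call that also ended without the PV (−1.10, adjusted p = 0.12), SST (−1.41, adjusted p = 0.051) or vGluT2 line (−1.17, adjusted p = 0.234 by edgeR).

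Cerebellar total RNA had by far the most calls, among members as among all genes. It gave 27 of 102 members (26.5%), 19 higher and 8 lower in HD, against 3544 of 14477 genes (24.5%), 1732 higher and 1812 lower. An unadjusted p under 0.05 was reached by 40.2% of members against 44.4% of all genes. The share of members called was thus that of the whole table, while their median log2 fold change, 0.18, lay above the −0.01 of all genes. In the fit of group means, the vGluT2 line gave 42 members (32 higher, 10 lower) against 7067 genes (48.8%), 3291 of them higher. The Gad2 line gave 0 members against 7 genes (0.0484%) by edgeR.

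Of the 27 members called there, 16 were in a list by role and 11 in none of the lists. The shares by list stand beside the 24.5% of all genes and were not tested. Of receptors and signalling genes 4 of 17 were called, *Adra2c*, *Ppm1g* (0.37) and, lower, *Grk4* (−1.26) and *Yes1* (−1.10). Of genes of the cytoskeleton and membrane traffic 5 of 16 were called, *Snx17* (0.64, SE 0.16, adjusted p = 0.028 by edgeR), *Crmp1* (0.37, SE 0.114, adjusted p = 0.0367), *Add1* (0.44), *Wdr1* (0.40) and *Haus3* (−1.08). Of nuclear and RNA genes 4 of 21 tested were called, the chromatin methyltransferase *Nsd2* (−0.90), *Mxd4* (0.45), *Zfp513* (0.40) and *Nelfa* (0.35). The median of each list was 0.06, 0.21 and 0.01 in that order. Of the 8 genes listed under mitochondria and endoplasmic reticulum 1 was called, *Mfsd10* (0.58), whose place in that list was not checked. Of metabolic and transport genes 2 of 10 were called, the lysosomal mannosidase *Man2b2* (0.50) and the glucose transporter *Slc5a1* (−0.29). The medians of these 2 lists were 0.24 and 0.21. Of these, the genes other than *Adra2c*, *Snx17*, *Crmp1* and the nearest members were named after their values were seen.

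*Snx17* and *Crmp1* were also higher in HD in this tissue, in the vGluT2 line. There 48.8% of all genes were called in the fit of group means, and 32 of the 42 members called were higher, so a shared direction is common. *Snx17* had 88.3, 91.0, 106.0 and 116.9 CPM in controls and 176.5, 192.1, 203.7 and 271.4 CPM in HD mice of that line, and 95.6, 131.8 and 143.6 CPM against 107.5, 147.0 and 179.7 CPM in the Gad2 line. *Crmp1* had 154.3, 161.3, 195.8 and 220.9 CPM in vGluT2 controls and 274.0, 303.6, 309.7 and 320.2 CPM in HD mice, and 196.8, 226.0 and 248.7 CPM against 205.2, 229.8 and 268.7 CPM in the Gad2 line. The genotypes were apart in vGluT2 and crossed in Gad2 mice, with log2 fold changes of 0.94 (SE 0.175) and 0.24 (SE 0.201) for *Snx17* and of 0.59 (SE 0.121) and 0.08 (SE 0.139) for *Crmp1*. In cerebellar vGluT2 IPs, *Snx17* changed by 0.22 (SE 0.124, adjusted p = 0.429 by edgeR) and *Crmp1* by 0.36 (SE 0.15, adjusted p = 0.261 by edgeR), both without a call.

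The balance of long and short transcripts moved with these calls. It was measured in each library as the median centred log2 CPM of genes with over 7000 bp of exon minus that of genes under 2500 bp. In cerebellar vGluT2 total RNA it was 0.23 to 0.58 in 4 controls (median 0.52) and −0.76 to −0.30 in 4 HD mice (median −0.48), with no overlap. In the Gad2 line the controls had −0.16, −0.14 and 0.66 and the HD mice −0.57, −0.14 and 0.66, which overlapped. Over both lines, genes under 2500 bp had a median log2 fold change of 0.23 and genes over 7000 bp one of −0.38, with 579 of 2853 and 1056 of 3489 called. Members under 2500 bp had a median of 0.23 (3 of 12 called, all higher) and members over 7000 bp one of 0.06 (9 of 34 called, 4 higher and 5 lower). With the measure as a covariate, a choice made after seeing the data, 1 member was left among 88 genes called, *Adra2c*. In that fit the log2 fold change was 0.30 for *Snx17*, 0.17 for *Crmp1*, 0.24 for *Add1*, 0.23 for *Mfsd10*, 0.40 for *Dok7*, 0.12 for *Lrpap1* and −0.55 for *Grk4*, against 0.64, 0.37, 0.44, 0.58, 0.58, 0.32 and −1.26 without the measure. Since genotype and measure did not overlap in the vGluT2 line, their parts cannot be told apart there.

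**Figure D4:**
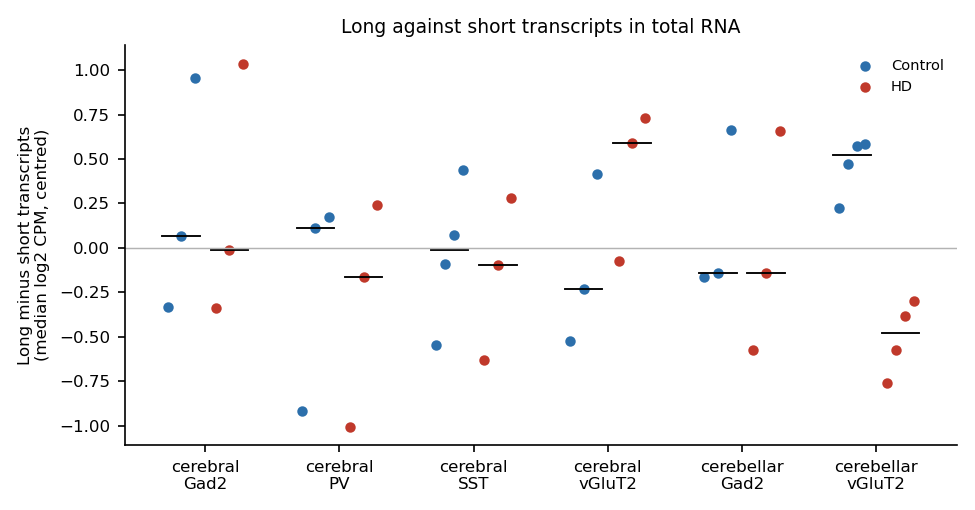
Median centred log2 CPM of genes over 7000 bp of exon minus that of genes under 2500 bp, in each total RNA library by region and line, with a bar at the median of each genotype. The 4 HD libraries of the cerebellar vGluT2 line lie below 0 and its 4 controls above 0, while genotypes overlap in the other 5 sets.

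Of 29 cell markers 9 were called in cerebellar total RNA, beside 24.5% of all genes. By edgeR 2 of 3 GABAergic markers were called lower, with a median summed level of 793.4 CPM in controls and 697.5 CPM in HD mice of the vGluT2 line, *Gad1* being the most abundant. Of glutamatergic markers 1 of 2 was called higher, with 623.5 and 1272 CPM and *Slc17a7* the most abundant. The other was lower without a call, and the median log2 fold change of the 2 was −0.38. Of Purkinje markers 1 of 2 was called lower (1188 and 977.5 CPM, mostly *Calb1*), of astrocyte markers 1 of 5 lower (2335 and 1966 CPM, mostly *Slc1a3*), and of oligodendrocyte markers 1 higher and 1 lower of 5 (4173 and 3733 CPM, mostly *Mbp*). Of microglia markers 2 of 5 were called higher, at 71.6 and 109.6 CPM, mostly *Csf1r*. Granule neuron markers had 0 of 2 called (852.7 and 530.8 CPM, mostly *Gabra6*), PV neuron markers 0 of 3 and SST neuron markers 0 of 2 by edgeR. In the vGluT2 line the PV sums did not overlap (1383 to 1807 CPM in controls, 1972 to 2676 CPM in HD mice). Nor did the glutamatergic sums (493.8 to 748.6 and 1240 to 1394 CPM) or the Purkinje sums (1050 to 1242 and 955.0 to 1007 CPM). No marker of these lists was at 0, and the part of the markers in the members' changes was not tested.

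Leaving out single libraries changed the count of 27 members in cerebellar total RNA more than any other. *Adra2c* alone was called without vGluT2 Control replicates 1, 2, 3 or 4, without Gad2 HD replicate 2, and without vGluT2 HD replicates 2, 3 or 4, where 96 to 143 of all genes were called. Without Gad2 Control replicate 2 there were 2 members, without vGluT2 HD replicate 1 there were 9, without Gad2 HD replicate 1 there were 16 and without Gad2 HD replicate 3 there were 44, among 302, 1278, 2425 and 7408 of all genes. *Snx17* kept its call in 5 and *Crmp1* in 4 of the 14 fits, at log2 fold changes of 0.53 to 0.73 and 0.31 to 0.43. Only *Adra2c* of all members was thus called in this tissue whichever library was left out.

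The members nearest to *Htt* were followed in every comparison. Before *Htt* these were *Grk4*, a kinase of G protein-coupled receptors 6.4 kb away, *Nop14* (101.6 kb), *Mfsd10* (124.5 kb), *Add1* (129.4 kb) and *Sh3bp2*, and on its other side *Msantd1*, which overlaps the end of *Htt*, *Rgs12* (36.9 kb), *Hgfac* (129.0 kb), *Dok7* (144.2 kb) and *Lrpap1* (179.0 kb). Outside cerebellar total RNA none of these 10 was called by edgeR in the comparisons made. In that tissue *Grk4* changed by −1.26 (SE 0.371, adjusted p = 0.0343 by edgeR), *Add1* by 0.44 (SE 0.124, adjusted p = 0.0323), *Mfsd10* by 0.58 (SE 0.19, adjusted p = 0.0415), *Dok7* by 0.58 (SE 0.122, adjusted p = 0.0237) and *Lrpap1* by 0.32 (SE 0.112, adjusted p = 0.049 by edgeR), beside 24.5% of all genes called. Of the 14 fits without a single library, *Grk4* kept its call in 4, *Add1* in 5, *Mfsd10* in 3, *Dok7* in 6 and *Lrpap1* in 3. All 5 lost it with the replicate block, with the measure of long to short transcripts and without the vGluT2 line, and *Lrpap1* also with DESeq2 size factors (adjusted p = 0.0544), without the filter on counts (adjusted p = 0.056) and with *Xist* as a covariate (adjusted p = 0.0511 by edgeR). *Msantd1* lies on the strand of *Htt*, was tested in the 6 cerebral comparisons and was called in none of them by edgeR, and *Hgfac* was not tested. *Rgs12*, which quickens the return of G proteins to rest, changed by −0.21 over the cerebral IPs (SE 0.0689, adjusted p = 0.0808 by edgeR). By edgeR, *Nop14* and the members at the edges, *Tmem214* and *Zfp518b*, had no call in the 10 comparisons. In the fit of group means, which called 48.8% of all genes for the vGluT2 line in cerebellar total RNA, that line had calls for *Rgs12* in the other direction (0.62, SE 0.178, adjusted p = 0.0122), *Tmem214* (0.62, SE 0.205, adjusted p = 0.0229) and *Nop14* (−0.46, SE 0.183, adjusted p = 0.0491 by edgeR).

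*Dok7*, an adaptor of muscle kinase signalling at the synapse, had the lowest adjusted p of these 5, and its call ended in 8 of the 14 fits without a single library, with the replicate block (0.58, adjusted p = 0.121) and with the measure of long to short transcripts (0.40, adjusted p = 0.229 by edgeR). Its total RNA level in the cerebellar vGluT2 line was 11.3, 12.1, 13.7 and 14.2 CPM in controls and 21.4, 23.1, 24.1 and 25.3 CPM in HD mice, and in the Gad2 line 14.2, 14.3 and 16.1 CPM in controls and 13.9, 20.5 and 23.1 CPM in HD mice. The vGluT2 groups were apart and the Gad2 groups overlapped through 1 HD mouse. In cerebellar vGluT2 IPs *Dok7* had 6.74, 8.15, 8.26, 8.84 and 12.2 CPM in controls and 10.8 to 14.3 CPM in 6 HD mice (median 12.5), overlapping through 1 control (0.51, SE 0.164, adjusted p = 0.148 by edgeR). *Grk4* was scarce, at 0.606, 1.36, 1.81 and 1.81 CPM in vGluT2 controls and 0.256, 0.319, 0.391 and 0.724 CPM in HD mice of cerebellar total RNA, and its groups overlapped.

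The calls were counted by distance from *Htt*. In cerebellar total RNA, 11 of 27 members within 1 Mb were called (40.7%), 7 of 24 at 1 to 2 Mb (29.2%) and 9 of 51 at 2 to 4 Mb (17.6%), against 15 of 54 genes in the 8 Mb before the window (27.8%), 2 of 17 in the 8 Mb after it (11.8%), 184 of 713 on the rest of chromosome 5 (25.8%) and 24.4% on other chromosomes. These shares rest on 27 calls, of which 1 was left in 8 of the 14 fits without a single library. Among the cerebral IPs, 1 of 28 members within 1 Mb was called (*Acox3*), 0 of 24 at 1 to 2 Mb and 3 of 50 at 2 to 4 Mb. Beside these were 3 of 53 genes in the 8 Mb before the window (5.66%) and 2.62% of all genes. In cerebral total RNA the 3 calls were *Fgfr3* at 1 to 2 Mb, and *Wfs1* and *Trim54* at 2 to 4 Mb. None of the 28 members within 1 Mb was called there, beside 0.645% of all genes. In cerebellar vGluT2 IPs the one call lay within 1 Mb, and the 8 Mb before the window had 3 of 51 (5.88%), beside 2.11% of all genes. No test was made of position.

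The promoters of 4 members are shown because these are the members whose change was called in more than 1 comparison: *Snx17* and *Crmp1* in the cerebral IPs and cerebellar total RNA, *Wfs1* in the cerebral IPs and cerebral total RNA, and *Adra2c* in cerebellar sets. RefSeq promoters on GRCm38.p6 matched 108 member symbols, and the 250 bases before the RefSeq gene start, which is not always the GENCODE start, were searched on both strands for the GC box (GGGCGG), the CRE core site (letters TGACG), the E-box (letters CACGTG), the TATA box (letters TATAAA) and the CCAAT box. By the GENCODE coordinates most of the *Adra2c* and *Wfs1* windows and part of the *Crmp1* and *Snx17* windows lie inside the gene. Matches are in capitals, as read on the gene's strand. *Adra2c* (chr5:35278316-35278565, plus strand) held 1 E-box and 1 CCAAT box and no GC box, *Wfs1* (chr5:36988983-36989232, minus strand) 4 GC boxes and 1 CCAAT box, *Crmp1* (chr5:37241808-37242057, plus strand) 5 GC boxes and 1 CRE core site, and *Snx17* (chr5:31193054-31193303, plus strand) 1 each of GC box, CRE core site and CCAAT box.
Adra2c: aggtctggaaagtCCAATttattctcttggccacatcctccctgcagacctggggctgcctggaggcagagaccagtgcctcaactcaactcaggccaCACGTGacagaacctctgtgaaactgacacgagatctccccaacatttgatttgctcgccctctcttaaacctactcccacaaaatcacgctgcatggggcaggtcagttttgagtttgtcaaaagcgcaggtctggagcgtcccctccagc
Wfs1: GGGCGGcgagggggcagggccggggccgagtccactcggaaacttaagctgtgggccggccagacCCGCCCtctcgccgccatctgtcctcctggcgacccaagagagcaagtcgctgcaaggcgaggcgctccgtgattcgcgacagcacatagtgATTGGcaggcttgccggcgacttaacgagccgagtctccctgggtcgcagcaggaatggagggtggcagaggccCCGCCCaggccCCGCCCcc
Crmp1: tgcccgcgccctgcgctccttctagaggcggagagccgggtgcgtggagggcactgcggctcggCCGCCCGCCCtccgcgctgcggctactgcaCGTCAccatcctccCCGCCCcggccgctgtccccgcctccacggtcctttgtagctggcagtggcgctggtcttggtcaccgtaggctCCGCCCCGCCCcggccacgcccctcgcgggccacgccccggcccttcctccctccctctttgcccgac
Snx17: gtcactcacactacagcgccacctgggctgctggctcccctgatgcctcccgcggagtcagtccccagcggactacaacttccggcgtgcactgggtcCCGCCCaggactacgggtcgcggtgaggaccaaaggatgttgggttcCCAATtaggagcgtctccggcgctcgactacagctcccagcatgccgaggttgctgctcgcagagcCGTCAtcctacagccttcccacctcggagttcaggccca

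GC boxes were in 80 of 128 member promoters (62.5%), against 32.7% of 32851 promoters, and CRE core sites in 25.0% against 17.8%. E-boxes were in 8.59% against 6.02%, TATA boxes in 1.56% against 12.4% and CCAAT boxes in 33.6% against 33.8%. *Adra2c*, at 53.6% G and C, lay near the median of all promoters (52.4%), while *Crmp1* (75.6%), *Wfs1* (69.6%) and *Snx17* (64.4%) lay above the median of member promoters (62.2%). The 32851 promoters outnumber the 21897 protein-coding genes listed, and the 128 member promoters come from 108 symbols. Shares over promoters of protein-coding genes alone were not counted, so these differences are not read as a trait of the window. A match describes letters in these windows and not a site in use.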

How the data were processed

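The deposited gene table holds the authors' estimated counts, for which the submitters' notes name STAR, Salmon and GRCm38.p6. Counts were rounded, gene types and positions were taken from GENCODE M21, and 55141 of 55401 genes matched. Fits used edgeR 4.0.16 with limma 3.58.1 in R 4.3.3 (TMM, quasi-likelihood F test), and DESeq2 1.42.0 was an alternative. Tables were made in pandas 2.3.3 on numpy 2.4.6 and figures in matplotlib 3.10.9, under Python 3.11.15. The members, the role lists and the marker lists were chosen with earlier results of these data known. Named by rule were *Htt*, *Adra2c*, the members called in 2 or more comparisons with one sign and members called by the interaction tests. So were the 5 members nearest to *Htt* on each side, the first and last in the window, and the adrenergic receptors. All other named genes were chosen after their values were seen. Alternatives were DESeq2 as the test, its size factors in edgeR, filterByExpr or all genes with any count in place of the mean count filter, the replicate block, all IPs of a region in one fit, *Xist* as a covariate, leaving out each line, each library sequenced again and each library in turn, and, chosen after seeing the data, the long to short transcript measure as a covariate, leave-outs in the IPs over the lines of a region and leave-outs of each mouse in the comparison of regions.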

Additional observations from a re-analysis of the deposited data

Results flagged for a closer look

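Among 75 groups of values (5 genes in each group of 4 to 6 libraries) tested for a sample far from the others, 5 were flagged, where chance flags about 1 in 20 groups. For *Adra2c* these were Control replicate 4 of the cerebellar Gad2 IPs (9.09 CPM), Control replicate 6 of the PV IPs (22.6 CPM) and Control replicate 1 of the cerebral vGluT2 IPs (24.1 CPM), each the highest of its group. Control replicate 6 of the PV IPs was also the highest for *Crmp1* (232.1 CPM), and HD replicate 4 of the cerebellar vGluT2 IPs was the highest for *Snx17* (248.4 CPM).

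A difference between groups was flagged for *Adra2c*, whose change in the cerebellum exceeded that in the cerebrum by 0.80 in log2 in the test of regions (adjusted p = 0.0103 by edgeR). Another was flagged for *Wfs1* in total RNA of the vGluT2 line, where every HD mouse lay above every control in the cerebellum (HD median 65.8 CPM) and below every control in the cerebrum (HD median 121.6 CPM). The difference for *Wfs1* was not tested.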

How the results depend on the processing

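No result reversed. By DESeq2 the count of members called was 1 in PV, cerebral vGluT2 and cerebellar Gad2 IPs (among 42, 25 and 22 of all genes called), 5 in cerebellar vGluT2 IPs (among 665) and 7 over the cerebral IPs (among 622). By edgeR these sets had 5, 1, 2, 285 and 384 genes called. With all IPs of a region in one fit it was 1 in cerebral vGluT2 IPs (among 9). With the long to short transcript measure as a covariate, chosen after seeing the data, it was 3 in cerebellar vGluT2 IPs (among 732), 7 in cerebral total RNA (among 549, against 96) and 1 in cerebellar total RNA (among 88, against 3544). With the replicate block it was 0 in cerebellar vGluT2 IPs (among 108), 10 over the cerebral IPs (among 788) and 0 in cerebellar total RNA (among 9), where *Adra2c* kept its log2 fold change, at 0.97 in the IPs (adjusted p = 0.0819) and 1.10 in total RNA (adjusted p = 0.07 by edgeR). In cerebral Gad2 total RNA the 3 pairs of libraries with one replicate number correlated at 0.702 to 0.986, each best with its own number, while in the other 11 sets at least 1 pair did not exceed 0.1. The median correlation was 0.617 in cerebral Gad2 IPs, where 4 of 6 pairs were best with their own number. It was 0.528 in cerebellar Gad2 IPs (2 of 5) and 0.457 in cerebral vGluT2 IPs (3 of 5). In PV total RNA it was −0.69 and in cerebellar Gad2 total RNA −0.678 (0 of 3 each). The labels do not say whether a shared number marks a pair. Without the Gad2, PV or vGluT2 line the cerebral IPs gave 2, 1 and 0 members (among 105, 154 and 112 genes), and cerebral total RNA gave 0 without the PV, SST or vGluT2 line (among 41, 21 and 30). Without the vGluT2 line the cerebellar IPs gave 0 (among 2) and cerebellar total RNA 0 (among 0), and without the Gad2 line cerebellar total RNA gave 47 (among 7565). The cause of these changes was not tested, though fits without a line hold fewer samples.

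With single libraries left out, the count ran from 1 to 3 in cerebellar vGluT2 IPs (149 to 255 of all genes), 4 to 7 over the cerebral IPs (287 to 649), 1 to 1 over the cerebellar IPs (73 to 182), 2 to 4 in cerebral total RNA (62 to 145), 1 to 44 in cerebellar total RNA (96 to 7408) and 1 to 2 in the comparison of regions (29 to 81), and was 0 in the other IP sets. *Adra2c* kept its call in each of these fits for the 4 comparisons that called it. Groups of 3 to 6 mice limit what a call can find, and *Grk4*, *Trim54* and *Sh3bp2* were read at levels near 1 CPM.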
